A study of Caenorhabditis elegans with 2 samples.

Results

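The regions described are all peaks on chromosome III in the pooled peak list of a ChIP-seq experiment on the Caenorhabditis elegans zinc finger protein ZK546.5. They were taken as every line of that list whose chromosome is III, which gave 4941 of the 30000 pooled peaks. They were then split into 102 that also stood in the thresholded list, which holds 491 peaks in all and was derived by the authors by the irreproducible discovery rate (IDR), and 4839 that did not. The authors label the pooled list as peaks and background, meant as input for the IDR. Its entries are called peaks here for short, and those below the threshold are not to be read as binding sites. The chromosome was cut into 3 segments of equal length, called left, middle and right, and each peak was placed in one by its summit. ChIP-seq recovers and sequences the DNA bound by a protein, here from whole animals in the second larval stage (L2). The worms were of strain OP231, whose genotype the labels give as unc-119(ed3) on chromosome III with the transgene wgIs231. The strain stably expresses ZK546.5 with GFP and FLAG fused to its C terminus, and the samples were pools of both sexes. There were 2 biological replicates, which form 1 group, so no treatment or genotype is compared. The control library that the authors used for peak calling was not analysed here, and the driving promoter of the transgene, the depth of sequencing and whether the replicates were separate cultures are not stated in the labels or files.

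Proteins with C2H2 zinc fingers commonly bind DNA through their fingers. In C. elegans many promoters are short and lie between genes transcribed in opposite directions, and many broadly expressed genes are found in the central parts of the autosomes, while the arms are richer in repeats and in young gene families. Chromosome III carries the Hox cluster and many loci of classical worm genetics, unc-119 among them. The chromosome is 13783801 bp long in build ce11, which makes it the shortest of the 6 nuclear chromosomes. Its description as gene-dense was borne out only in part. It held 2640 protein-coding genes or 192 per Mb, against 200 per Mb on the other nuclear chromosomes together, and chromosomes V (239 per Mb) and II (226 per Mb) were denser. Its middle segment held 232 coding genes per Mb and was denser than the left (165) and the right (178).

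The sequences below show the strongest summits, so that shared letters can be seen. They cover the 50 bases on each side of the summits of the 8 strongest thresholded peaks of chromosome III and of the strongest peak of the chromosome that missed the threshold, on the plus strand of ce11, from the RefSeq genome sequence. Those ranked 5th to 8th were added after the values were seen. Capitals mark the 8 words of 6 bases described after the sequences, on either strand.
ant-1.1 and T27E9.2 with abcf-2, right (chrIII:13463061-13463161): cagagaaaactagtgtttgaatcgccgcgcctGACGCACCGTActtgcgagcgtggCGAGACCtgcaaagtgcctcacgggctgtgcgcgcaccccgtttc
rfc-4 and eef-1A.1, middle (chrIII:6972049-6972149): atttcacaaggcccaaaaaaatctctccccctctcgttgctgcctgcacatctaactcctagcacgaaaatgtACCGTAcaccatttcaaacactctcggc
ubl-1, left (chrIII:3068055-3068155): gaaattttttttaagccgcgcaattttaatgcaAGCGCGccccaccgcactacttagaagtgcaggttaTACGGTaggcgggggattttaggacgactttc
spk-1 and rheb-1, right (chrIII:9456270-9456370): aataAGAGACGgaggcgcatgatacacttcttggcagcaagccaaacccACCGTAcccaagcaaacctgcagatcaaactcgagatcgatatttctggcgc
Y82E9BR.3, left (chrIII:1418848-1418948): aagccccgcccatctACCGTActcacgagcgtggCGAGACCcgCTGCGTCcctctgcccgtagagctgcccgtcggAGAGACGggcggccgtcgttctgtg
rpl-3, left (chrIII:3867528-3867628): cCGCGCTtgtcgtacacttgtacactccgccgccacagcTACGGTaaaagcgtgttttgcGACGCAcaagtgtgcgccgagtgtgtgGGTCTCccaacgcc
prp-8 and bath-42, middle (chrIII:8164002-8164102): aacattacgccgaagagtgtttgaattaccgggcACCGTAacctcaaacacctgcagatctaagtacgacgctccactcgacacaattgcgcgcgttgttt
rpl-35, middle (chrIII:7854640-7854740): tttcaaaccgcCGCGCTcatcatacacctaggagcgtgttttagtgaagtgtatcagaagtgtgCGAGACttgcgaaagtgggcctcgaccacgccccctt
larp-1 intron, middle, below the threshold (chrIII:5014100-5014200): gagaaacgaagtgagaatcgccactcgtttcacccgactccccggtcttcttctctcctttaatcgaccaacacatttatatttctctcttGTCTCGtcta

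Peaks in the thresholded list held a set of short words far more often than other promoter summits of the chromosome. All 2080 words of 6 bases, each counted along with its reverse complement, were looked for within 50 bp of each summit, and the 8 with the largest gap in share between the thresholded peaks and the other promoter summits of chromosome III were taken. These were CGAGAC (in 27 of 102 thresholded windows), CGTCTC (28), AGAGAC (25), GAGACC (23), AGCGCG (21), GACGCA (22), ACGCAG (22) and ACCGTA (22), several of which overlap in sequence. Each of them stood in 2.67% to 5.47% of the other promoter summits. At least 1 of them stood in 78 of 102 thresholded windows (76.5%), in 350 of 1720 other promoter summits (20.3%) and in 421 of 2640 windows of the same length centred on coding 5' ends (15.9%). This gap is how the words were chosen and is no test. On the other nuclear chromosomes, which played no part in the choice, 227 of 368 thresholded windows (61.7%) held 1 or more of the words. The words were not counted in other promoter summits of those chromosomes, so this share has no background of its own. The windows differed in base composition: GC content had a median of 49.5% in thresholded windows, 34.7% in other promoter summits and 35.7% over the whole chromosome. The part of GC content in the word shares was not tested.

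The word ACCGTA, or TACGGT on the other strand, was commoner among the stronger thresholded peaks. It was found in 7 of the 8 strongest windows printed above, in all but that of rpl-35. Among the 20 strongest peaks 12 held it (60%), against 10 of the other 82 thresholded peaks (12.2%) and 76 of 1720 other promoter summits (4.42%). Other words of the 8 were also commoner among the 20 strongest, such as AGCGCG (8 of 20, against 13 of 82) and GACGCA (7 of 20, against 15 of 82). The split by strength was made after these sequences were seen, and no test was made of it. On the other nuclear chromosomes 19 of 50 thresholded peaks at least as strong as the 20th of chromosome III held the word (38%), against 37 of 318 weaker ones (11.6%). There AGCGCG (6 of 50, against 43 of 318) and GACGCA (5 of 50, against 67 of 318) were not commoner among the stronger peaks. By segment of the chromosome, 5 of 25 (left), 9 of 41 (middle) and 8 of 36 (right) thresholded peaks held ACCGTA. The word AGCGCG was spread less evenly, at 10 of 25 on the left, 4 of 41 in the middle and 7 of 36 on the right. A match of letters is a description and does not show a binding site.

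The strongest peak of the chromosome lay in the right segment, at chrIII:13462892-13463346. Its summit was 52 bp upstream of ant-1.1, which encodes a mitochondrial ADP/ATP carrier, and the windows of T27E9.2 and abcf-2, an ABC-F family ATPase, held it as well. Peak signal is the value the authors' caller gave each peak against the control and is not scaled between lists. It was 1715 in the pooled list, 1078 in that of replicate 1 and 653 in that of replicate 2. The second, in the middle segment at chrIII:6971867-6972307, lay between rfc-4, a subunit of the clamp loader of DNA replication, at 154 bp and eef-1A.1, which encodes translation elongation factor 1 alpha. Its signal was 1534 in the pooled list, 908 in replicate 1 and 629 in replicate 2. The next, at chrIII:3067901-3068299 in the left segment, was 205 bp upstream of ubl-1, which encodes a ribosomal protein fused to a ubiquitin-like protein, with 1016 in the pooled list, 630 in replicate 1 and 387 in replicate 2. In both replicates these kept the order they had in the pooled list.

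**Figure D1:**
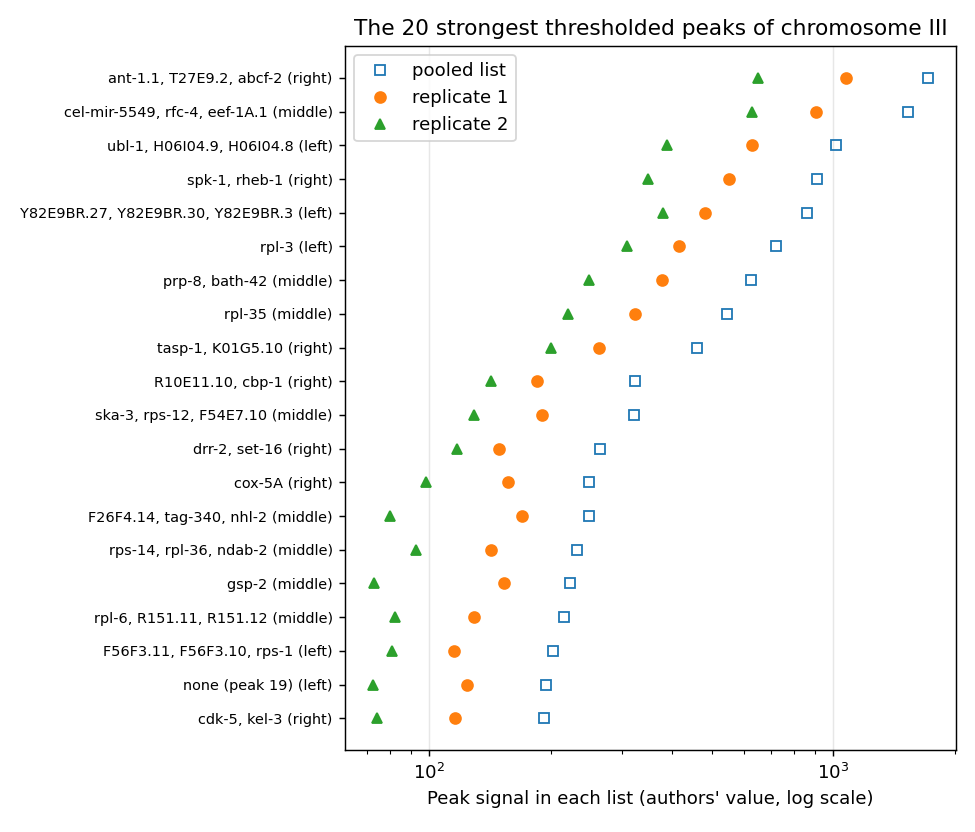
Signal of the 20 strongest thresholded peaks of chromosome III on a log axis, in the pooled list (squares), the list of replicate 1 (circles) and that of replicate 2 (triangles), with the window genes (up to 3) and the segment of the chromosome at the left. Pooled signals run from 1715 at ant-1.1 to 192 at cdk-5, and the values of both replicates fall along with them.

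Signal was held by few peaks. The 5 strongest of the 102 held 34.1% of their summed pooled signal, the 10 strongest 49.3% and the 20 strongest 62.5%. The 4th (chrIII:9456127-9456521, right) lay between spk-1, an SR protein kinase gene, and rheb-1, a small GTPase of the TOR pathway, at 910 in the pooled list, 552 in replicate 1 and 349 in replicate 2. The 5th (left) was 298 bp upstream of the coding gene Y82E9BR.3, at 864 pooled, 483 in replicate 1 and 379 in replicate 2. At rpl-3, a large-subunit ribosomal protein gene (chrIII:3867417-3867726, left), the signal was 723 pooled, 416 in replicate 1 and 308 in replicate 2. Between prp-8, which encodes a core spliceosome protein, and bath-42 (chrIII:8163889-8164202, middle) it was 627, 378 and 248 in the same order. At rpl-35 (chrIII:7854540-7854844, middle) it was 324 in replicate 1 and 220 in replicate 2. No other chromosome III peak had a pooled signal above 500, and these 8 fell evenly over the chromosome, with 3 on the left, 3 in the middle and 2 on the right.

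The peaks ranked 9th to 20th had pooled signals from 461 to 192. In the right segment they were at tasp-1 with K01G5.10 (461), at cbp-1, a histone acetyltransferase gene, 898 bp away (323), at drr-2 with set-16, an MLL-like histone methyltransferase gene (265), at cox-5A, a cytochrome c oxidase subunit (249), and inside kel-3 in the windows of kel-3 and cdk-5, a kinase with known roles in neurons (192). In the middle segment they were at rps-12 with the kinetochore gene ska-3 (321), nhl-2 with tag-340 (248), rps-14 with rpl-36 (232), gsp-2, a catalytic subunit of protein phosphatase 1 (223), and rpl-6 (216). In the left segment they were at rps-1 with ifet-1, a translational repressor (202), and at a summit in no promoter window inside C34C12.2 (195). The replicate signals of these 12 peaks ran from 115 to 264 in replicate 1 and from 72.6 to 200 in replicate 2.

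Chromosome III held more thresholded peaks than its length or its count of pooled peaks gives. It had 20.8% of the thresholded peaks, 16.5% of the pooled peaks and 13.7% of the nuclear bases. The whole lists also hold 21 mitochondrial peaks, all of them thresholded, which comparisons with the other nuclear chromosomes leave out. Of its pooled peaks 2.06% were thresholded (102 of 4941, exact 95% interval 1.69 to 2.5), where the whole pooled list stood at 1.64%. On the other nuclear chromosomes it was 1.47% (368 of 25038, interval 1.32 to 1.63), an odds ratio of 1.42 (95% interval 1.14 to 1.77). In a two-sided Fisher's exact test this gave an adjusted p of 0.0063, by Benjamini-Hochberg over 8 comparisons. Counting the mitochondrial peaks among the others (389 of 25059) gave an odds ratio of 1.34 (adjusted Fisher p = 0.0235). With each run of neighbouring thresholded peaks counted once the difference no longer passed (odds ratio 1.31, adjusted Fisher p = 0.0681). Peaks close to each other, and genes with 1 peak in common, are not independent, so all p-values given here are likely too small. They compare these lists and do not measure how worms vary.

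Counted by genes the difference was larger. On chromosome III 132 of 2640 coding genes (5%, interval 4.2 to 5.9) had a thresholded summit in the promoter window, taken as the 1000 bp before and the 200 bp after any annotated 5' end. Over all nuclear chromosomes the share was 2.84%, and over those other than III 2.51% (435 of 17333), an odds ratio of 2.05 (1.68 to 2.5; Fisher's exact test, adjusted p = 1.43e-10). The share on chromosome I was 5.28% (152 of 2878), and the test of III against I did not pass (odds ratio 0.944, 95% interval 0.744 to 1.2, adjusted Fisher p = 0.67). Shares on chromosomes IV (3.23%), II (2.87%), V (1.06%) and X (0.915%) were lower than that of III, with exact 95% intervals that did not reach it. Since the other chromosomes spread this widely, III stands with chromosome I above the rest and not apart from all of them. Without the 81 genes with names of cytosolic ribosomal proteins the odds ratio against the other chromosomes was 1.98, and without chemoreceptor, nuclear hormone receptor and C-type lectin genes, which are numerous on other chromosomes, it was 1.88. Against the other autosomes alone it was 1.83. It fell most, to 1.62, when only coding genes with a pooled summit in the window were counted (132 of 1332 against 435 of 6816, adjusted Fisher p = 3.72e-05).

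**Figure D2:**
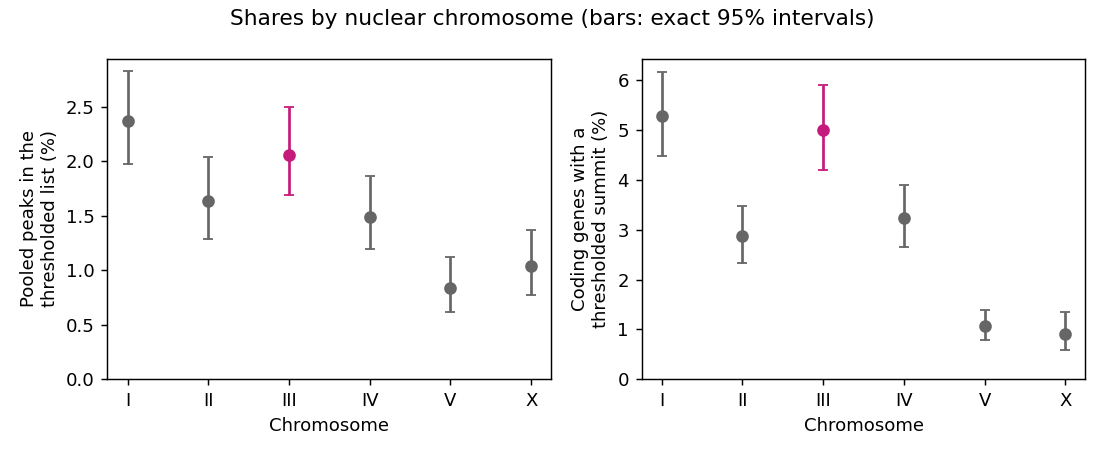
Share of pooled peaks that are in the thresholded list (left) and share of protein-coding genes with a thresholded summit in the promoter window (right), in percent, for the 6 nuclear chromosomes. Points are shares, bars exact 95% intervals, and chromosome III is in colour at 2.06% and 5%, next to chromosome I at 2.37% and 5.28%.

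The middle segment had the most thresholded peaks and the fewest others. There were 25 thresholded peaks on the left (5.44 per Mb), 41 in the middle (8.92 per Mb) and 36 on the right (7.84 per Mb). Other pooled peaks went the opposite way, with 1773 on the left (386 per Mb), 1276 in the middle (278 per Mb) and 1790 on the right (390 per Mb). Of the pooled peaks in the middle 3.11% were thresholded (41 of 1317), against 1.68% in both outer segments pooled (61 of 3624; odds ratio 1.88, 95% interval 1.26 to 2.81, adjusted Fisher p = 0.0063). The right segment alone stood at 1.97% and the left at 1.39%. Neither trait was particular to III. When cut in the same way, every nuclear chromosome had fewer other pooled peaks per Mb in the middle, such as V (206 against 278). The thresholded share was higher in the middle on each autosome, such as II (1.69% against 1.61%) and V (1.77% against 0.488%). On X it was not (1.02% against 1.05%). These other chromosomes were not tested.

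Set against genes, the difference between the middle and the outer segments did not pass the test. Of 1064 coding genes in the middle 57 had a thresholded summit (5.36%), against 75 of 1576 in the outer segments (4.76%; odds ratio 1.14, 95% interval 0.798 to 1.61, adjusted Fisher p = 0.599). When coding genes without a pooled summit in the window were left out, the middle had 57 of 461 and the outer segments 75 of 871 (odds ratio 1.5, adjusted Fisher p = 0.054), which did not pass either. The right segment had the highest share at 5.75% (47 of 818, exact 95% interval 4.25 to 7.57) and the left the lowest at 3.69% (28 of 758, interval 2.47 to 5.29), with intervals that overlap. The excess of thresholded among pooled peaks in the middle thus came with more coding genes per Mb and fewer other pooled peaks there. Cytosolic ribosomal protein genes, taken by name, were gathered in the middle, where 11 of the 15 with a thresholded summit lie. Without that gene family the odds ratio between middle and outer segments turned to 0.969.

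**Figure D3:**
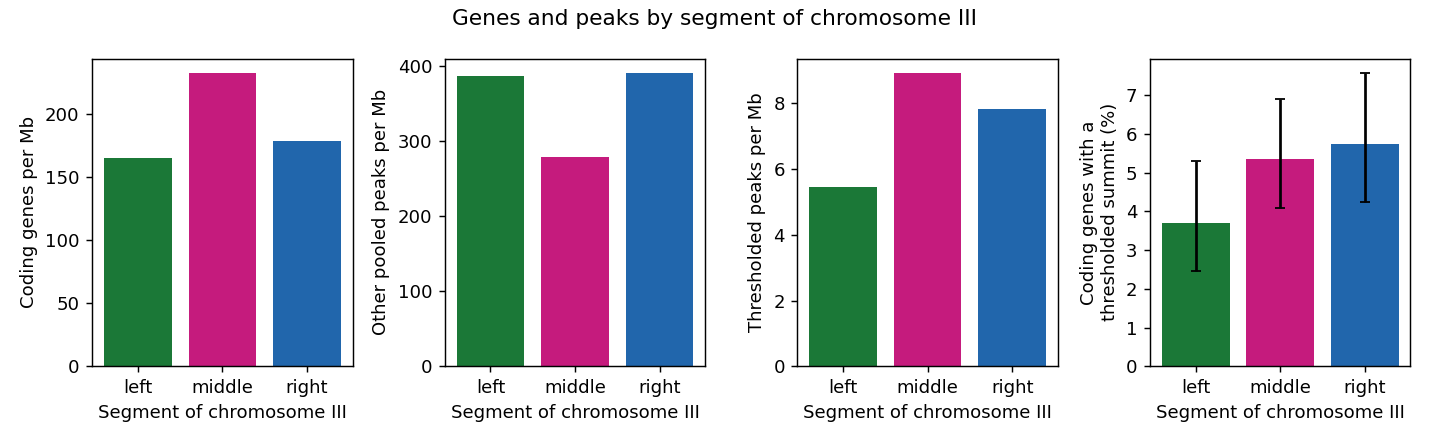
Bars give coding genes, not thresholded pooled peaks and thresholded peaks per Mb, and the share of coding genes with a thresholded summit (with exact 95% intervals), for each segment of chromosome III. The middle segment has the most genes (232 per Mb), the fewest other peaks (278 per Mb) and the most thresholded peaks (8.92 per Mb), while the shares of genes overlap in their intervals.

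Signals of thresholded peaks had their lowest median in the right segment, with no test made. The left ran from 50.5 to 1016 with a median of 93.8 and the middle from 46 to 1534 with a median of 93. The right ran from 46.5 to 1715 with a median of 70.6, and 27 of its 36 peaks were at or below 100, against 14 of 25 on the left and 23 of 41 in the middle. In the replicate lists the medians were 57.6 (left), 54.3 (middle) and 41.5 (right) for replicate 1 and 40.4, 36.9 and 29.3 for replicate 2, so the right segment was lowest in both. Peaks below the threshold had almost the same median in each segment, from 16 to 16.3. The GC content around thresholded summits had a median of 48.5% on the left and in the middle and of 52% on the right, against 32.7% to 33.7% around other summits.

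Thresholded summits lay in promoters and others mostly did not. Of the 102 summits 83 were in a promoter window (81.4%, exact 95% interval 72.4 to 88.4), against 1720 of 4839 others (35.5%, interval 34.2 to 36.9) and 31.3% of the bases of the chromosome. The odds ratio was 7.76 (4.73 to 12.8, Fisher's exact test, adjusted p = 9.35e-20). Of the summits that missed the threshold, introns held about as many as promoters did (1708, 35.3%), and coding exons held 512 (10.6%). Only 7 thresholded summits were in introns and 1 in a coding exon. By segment, promoters held 18 of 25 thresholded summits on the left, 35 of 41 in the middle and 30 of 36 on the right. Introns held 41.1% of the other summits on the left and 36.8% on the right but 25.2% in the middle.

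Against other chromosomes the promoter share of III depended on whether the X chromosome was counted. Elsewhere 324 of 368 thresholded summits (88%) were in promoters, and the test against III did not pass (odds ratio 0.587, 95% interval 0.327 to 1.05, adjusted Fisher p = 0.159). The X chromosome had a low share (59.2%), and the other autosomes ranged from 88.9% on V to 97.5% on IV. Against the other autosomes alone, a comparison added after the data were seen, III was lower (83 of 102 against 295 of 319, odds ratio 0.355, adjusted Fisher p = 0.00604). That comparison was not repeated with each run of neighbouring peaks counted once, and some III summits outside promoters lie in such runs.

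Within promoters the summits lay close upstream of the annotated start. Over the 132 coding genes, of which kel-3 had 2 summits, the summit was upstream of the 5' end or at it in 130 cases, at a median of 230 bp with quartiles of 150 and 438 bp, and downstream in 3. From 500 bp upstream to the nearest coding 5' end itself lay 71 thresholded summits (69.6%) and 671 of the others (13.9%). More than 1000 bp from any coding 5' end were 19 thresholded summits (18.6%) and 2816 of the others (58.2%).

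**Figure D4:**
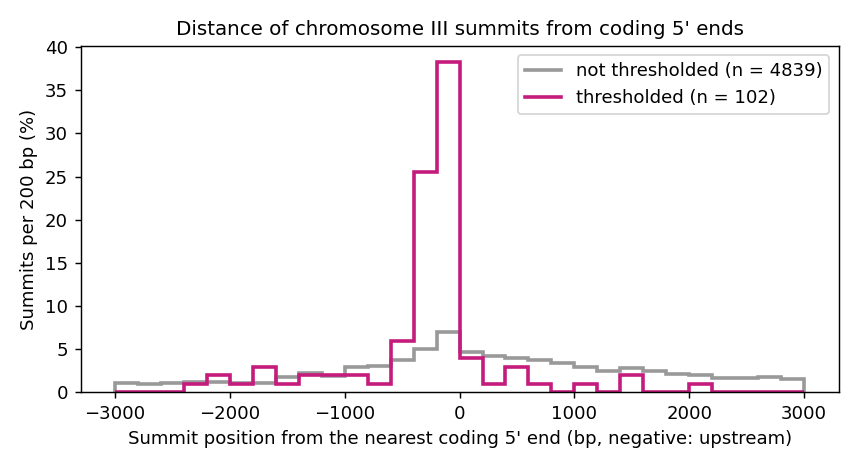
Position of each chromosome III summit relative to the nearest annotated coding 5' end in bins of 200 bp, as a percentage of the 102 thresholded and of the 4839 other summits, with negative values upstream. Thresholded summits pile up just upstream of the 5' end, where 69.6% lie within 500 bp, while other summits are spread over the whole range.

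Many thresholded summits lay upstream of a pair of genes transcribed away from each other. Of the 102 summits 40 (39.2%, exact 95% interval 29.7 to 49.4) were upstream of 2 coding genes on opposite strands, in the windows of both, and 3 of these 40 lay inside an annotated coding gene. Elsewhere it was 121 of 368 (32.9%; odds ratio 1.32, interval 0.841 to 2.07, Fisher's exact test, adjusted p = 0.32). Of the chromosome III summits below the threshold 152 were divergent (3.14%). The divergent thresholded summits had a median pooled signal of 92.6 and the 43 other promoter summits one of 85.7. As examples picked once values were known, the peak in the windows of hat-1, a histone acetyltransferase gene, and M03C11.3, inside the latter, had 174 in the pooled list, 95.6 in replicate 1 and 77 in replicate 2. That between rpn-3, a proteasome lid subunit, and the chaperone gene hsp-110 had 121, 78.4 and 35.3. That between mev-1, a subunit of succinate dehydrogenase, and jmjd-4 had 63, 37.4 and 23.9.

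The 19 thresholded summits outside promoter windows were weaker, with signals from 46 to 195 and a median of 61.9, against a median of 89.2 for the 83 in promoters. Their GC content was as high (median 50.5%). The strongest 5 were the summit in an annotated 5' UTR of C34C12.2 (chrIII:3456335-3456510; 195 in the pooled list, 124 in replicate 1 and 72.6 in replicate 2) and 4 between 97.2 and 106. One lay 2143 bp upstream of ogt-1, the gene of the O-GlcNAc transferase (pooled signal 106). One lay in an intron of zfp-1, a homologue of human AF10 (pooled signal 104), and one in an intron of Y111B2A.12, 3352 bp from the nearest coding 5' end (pooled signal 102). The last lay 1022 bp upstream of mtm-3, just beyond the window (pooled signal 97.2).

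Thresholded peaks sometimes came in runs. With summits up to 5 kb apart joined, the 102 peaks formed 86 runs, of which 12 held 2 to 4 peaks and 28 peaks in all. The median gap between neighbouring thresholded summits was 82.3 kb and the largest 804 kb. Of the 8 peaks with signals above 500, 4 were in such a run, as were 7 of the strongest 20 and 27.5% of all 102. The peak at ant-1.1 had others at kel-3 (85.9) and inside kel-3 in the windows of kel-3 and cdk-5 (192) within 3301 bp, and the peak at ubl-1 (1016) had neighbours of 70.1 and 61.9 on its sides. The longest run, chrIII:8795697-8802350, held 4 peaks around zfp-1 with signals of 104, 46.1, 46 and 73.1. A pair upstream of sup-26, at 89 and 58.3, had summits 201 bp apart, and both overlapped the same peak in each replicate list, so they may count 1 place under 2 entries.

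Genes of the cytosolic ribosome were the family with the highest share. Of the 18 coding genes on chromosome III with names of this family 15 had a thresholded summit (83.3%), against 5% of all coding genes there and 35 of 63 of the family elsewhere (55.6%). The gene ubl-1 (1016), whose product includes a ribosomal protein, falls outside the list by its name. This is a description of a list chosen with results of these data known. Signals of the 15 listed genes, led by rpl-3 (723) and rpl-35 and followed by rps-12 (321), rps-14 and rpl-36 (232 in a shared peak), rpl-6 (216) and rps-1 (202), went down to 58.2. The median of the strongest signal was 138 for the 16 family members with any listed summit and 18.6 for the 1332 such coding genes of the chromosome. Of the remaining 3 genes rpl-9 just missed the threshold (44.4) and rpl-16 and rpl-37 had no listed summit in the window. Of 22 mitochondrial ribosomal protein genes on this chromosome 0 had a thresholded summit, and 15 had a weaker one. Elsewhere 3 of 48 of that family had a thresholded summit (6.25%). Beside the 5% of all coding genes, 0 of 22 says little on its own.

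Gene lists here and after go by gene name, and shares are to be read beside the 5% of all coding genes of the chromosome and the 2.51% elsewhere. Respiratory chain and ATP synthase genes had 4 of 10, namely cox-5A (249), cox-6B (93.8), cox-14 (60.3) and atp-2, the beta subunit of the ATP synthase (47.3), against 6 of 33 elsewhere. Complex I genes under other names, ndua-8 (116) and nduc-2 (93.8, in the same peak as cox-6B), fall outside that list and were picked out after their values were seen. Genes under such names were not counted, so they give no share to set beside the 5%. Chaperonin, prefoldin and heat shock genes had 3 of 12, which were hsp-60, the mitochondrial chaperonin (188), hsp-110 (121) and cct-6 (46.3), against 12 of 53 elsewhere. Translation factors had 2 of 6, eef-1A.1 (1534) and eef-1B.1 (74.6), against 8 of 33 elsewhere. Splicing genes had 2 of 14, prp-8 (627) and prp-40 (60.9), against 6 of 30 elsewhere. Genes listed for the cell cycle and replication had 2 of 13, against 4 of 42 elsewhere. These were rfc-4 (1534) and cdk-5 (192), which is in the list by its name and is known for roles in neurons rather than in cell division. Single members had a thresholded summit among the proteasome (rpn-3 of 8 genes, 121), vacuolar ATPase (vha-1 of 4, 70.4) and RNA polymerase II and Mediator genes (mdt-19 of 13, 66.7). Elsewhere these lists had 5 of 25, 3 of 17 and 6 of 38, and 1 gene of each is too few to set apart from the 5%. Some lists share a peak: that of eef-1A.1 is also that of rfc-4, and that of rpn-3 is also that of hsp-110. The summit in the window of mdt-19 was 762 bp from it and 257 bp from apb-1.

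The remaining families had none. No thresholded summit was listed in the windows of 6 aminoacyl-tRNA synthetase genes, 8 nuclear pore and transport genes, 2 synaptonemal and meiotic genes, 3 histone genes, 20 genes with names of the collagen and body shape classes, 34 genes with names of chemoreceptor classes, 8 nuclear hormone receptors and 14 C-type lectins. With 5% of coding genes called on the chromosome, lists this short say little on their own. Names do not always give the function: the collagen list holds dpy-27 and dpy-28, genes of dosage compensation, and that of chemoreceptors holds odr-4, which acts in receptor trafficking.

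The Hox cluster in the middle segment had weak summits at most. The largest signals were 24.7 for lin-39, 19.5 for egl-5 and 14.9 for ceh-13, all below the threshold, and mab-5 had no listed summit in its window. Of 45 loci of classical genetics on the chromosome 25 had any listed summit and 2 a thresholded one (4.44%, near the 5% of all coding genes). These were lin-9, a subunit of the DREAM complex (147 bp upstream; 134 in the pooled list, 81.7 in replicate 1 and 47.6 in replicate 2), and par-2, a gene of embryonic polarity. The summit in the window of par-2 was 637 bp from it and only 11 bp from the 5' end of rab-18 (105, 40.1 and 66 in the same order). Among the rest lin-13 (42.1), lin-36 (34), dpy-27 (27.3), mig-10 (25.5) and dpy-1 (21) had the strongest summits. The other loci with a listed summit, daf-2 (16.8), daf-4 (17) and daf-7 (14.8) among them, had signals from 12.8 to 18.3. At 20 loci, such as glp-1, lin-12, tra-1 and unc-32, no summit was listed in the window. These counts cover windows only. Outside them, thresholded summits lay in a coding exon inside ncl-1 and an overlapping gene (50) and 1383 bp upstream of unc-64 (46.5).

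At unc-119, the gene mutated in the strain, no thresholded peak was listed. The gene spans chrIII:10902641-10908935 on the plus strand. One pooled summit lay in its promoter window (signal 14.2), 1 in an intron (13.2), 1 in a coding exon (13.1) and 1 beyond its 3' end (19.4). All 4 are close to the median of 16.2 of the chromosome's peaks below the threshold.

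Genes without a coding product also had summits in their windows. Over all 3859 annotated genes of the chromosome, 164 had a thresholded summit in the window (4.25%). Of the 54 snoRNA genes of the chromosome 10 had a thresholded one (18.5%), and all 10 lay downstream of a peak that also fell in a coding gene's window. Those at ubl-1 (1016), rps-12 (321), rpl-6 (216) and rps-29 (63) came in pairs. Genes for snRNAs had 2 of 13, miRNA genes 1 of 27 (cel-mir-5549, in the peak of rfc-4 and eef-1A.1) and piRNA genes 2 of 78. Genes annotated as ncRNA had 17 of 764 (2.23%). None of the 64 tRNA genes, 180 pseudogenes, 29 lincRNA and 10 antisense RNA genes had one. Only 4 thresholded summits lay in windows of non-coding genes alone, while 79 lay in the window of 1 or more coding genes, 40 of them in 2 and 7 in 3.

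The replicates found the same places for thresholded peaks. All 102 peaks overlapped a peak of replicate 2 by at least 1 bp, and all but 1 overlapped one of replicate 1. Since the thresholded list was made from these lists, that is how the peaks were chosen and no test. The exception was the peak 5' of cgh-1, which encodes a germline RNA helicase (51 in the pooled list and 37.2 in replicate 2). Of the 4839 others 50.2% overlapped a peak of replicate 1, 57% one of replicate 2 and 24.2% one of each, while 820 overlapped neither. The replicate lists cover 8.26% and 11.3% of the bases of the chromosome. These shares are no background for an overlap of 1 bp, since wide peaks touch a list more often than single bases do. Over the thresholded peaks found in both, the signals had a Spearman correlation of 0.751, and over the 1169 others found in both it was 0.16. These values are over peaks of the same libraries, which share a pooled call. Pooled signals ran from 46 to 1715 for the thresholded peaks but only from 12.2 to 45.7 for the others. With that narrower range, and thresholded peaks chosen from these lists, the gap between both correlations is no test either. Replicate 1 gave the larger value as a rule, with a median ratio of 1.48, which has no fixed meaning across lists.

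**Figure D5:**
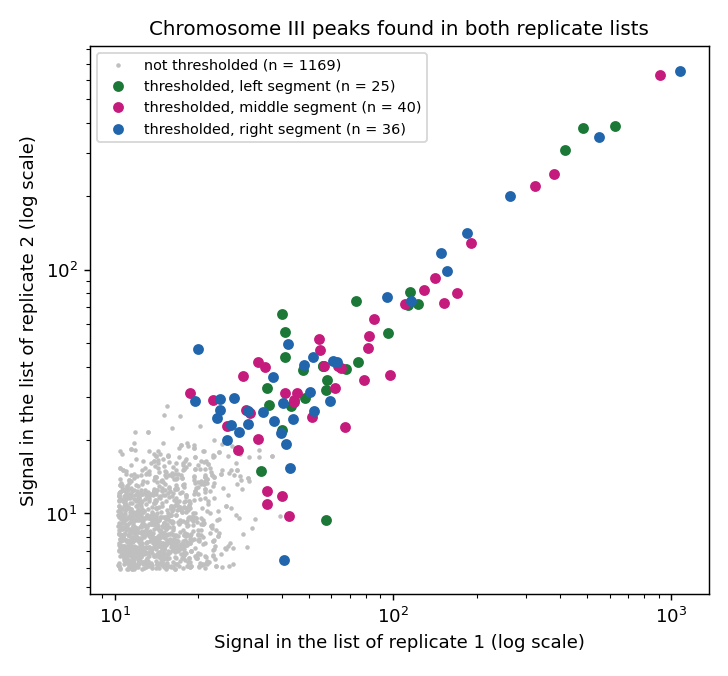
Signal in the list of replicate 1 against that of replicate 2, on log axes, for chromosome III peaks with an overlapping peak in both lists. Thresholded peaks are coloured by segment and the 1169 others are grey. The strong peaks form 1 narrow line up to 1078 and 653, and below about 60 in replicate 1 the thresholded points scatter.

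A few thresholded peaks ranked unlike in the replicates. Among the thresholded peaks found in both lists the largest gap was at the summit in an intron of spop-1 (chrIII:10096499-10096854, right), 99th in replicate 1 with 19.9 and 33rd in replicate 2 with 47.5. The peak between apb-1 and mdt-19 (chrIII:2597113-2597468, left) was 41st in replicate 1 with 57.7 and 100th in replicate 2 with 9.38. That at rpl-23 and swp-1 (chrIII:5706239-5706594, middle) was 33rd with 67.1 and 86th with 22.7. Of the 102 peaks 76 were among the 491 strongest of each replicate, 86 in replicate 1 and 90 in replicate 2. Among the 4839 others 3 were in both of these, 22 in replicate 1 and 18 in replicate 2.

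The boundary between both sets ran through a continuous range of signal. The last peaks inside were those between alh-9 and cct-6 (46.3), at the non-coding gene F54F2.13 next to zfp-1 (46.1) and in an intron of zfp-1 (46). The first outside were a summit in an intron of larp-1 (45.7 in the pooled list, 39.2 in replicate 1 and 9.73 in replicate 2), an intergenic summit close to the right end of the chromosome, 1012 bp from pot-3 (45.6, 30.4 and 17), and the summit at rpl-9 (44.4, 25.8 and 22.1). The strongest others in introns were, after larp-1, in bre-2 (40.2) and hpd-1 (36.7). Width also changed with strength. All 4839 peaks below the threshold and 73 of the thresholded ones were 356 bp wide, while the other 29 ranged from 118 to 455 bp and all had signals of 134 or more.

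Fixed motifs differed in both directions around the summits. GAGAGA stood within 50 bp of 24.5% of thresholded summits, of 8.49% of other promoter summits and of 8.14% of coding 5' ends on the chromosome. CTCCGCC stood at 7.84%, 1.51% and 1.59%, and GGGCGG at 9.8%, 3.78% and 2.69% in the same order. Of the 8 thresholded summits with CTCCGCC 5 were in the left segment. Runs of T or A of 6 bases were rarer at thresholded summits (13.7%, against 52.2% and 42.6%), as were TTTCAG, the letters of the nematode splice acceptor (0.98%, 19.9% and 37.8%), TATAAA (1.96%, 12.7% and 14.4%) and TGATAA (0.98%, 7.91% and 10.3%). The GC-rich CCGGAA (0.98%, 4.83% and 3.11%) and CCAAT (9.8%, 19.3% and 19.4%) were rarer there as well. TTTGAA (22.5%, 30.6% and 27.3%) and CACGTG (4.9%, 2.09% and 2.08%) differed less. The remaining motifs of the 16 searched each stood at no more than 1 thresholded summit of the chromosome. On the other nuclear chromosomes thresholded summits stood at 20.9% for GAGAGA, 1.9% for CTCCGCC, 6.79% for GGGCGG, 16.8% for runs of T or A and 7.61% for TTTCAG. Both strands were searched, GAGAGA overlaps the word AGAGAC above, and the lower share of AT-rich motifs goes with the higher GC content given above, whose part was not tested.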

How the data were processed

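Peak lists of 2 biological replicates and of both pooled were deposited on builds ce10 and ce11. Per the submitters' records, each came from alignments and a control library, and the thresholded list came from the pooled and replicate lists. Signal, as the authors deposited it, is the caller's value per peak against the control, and the deposited score was not used. No source used here gives aligner, caller, IDR threshold or depth, so intervals cover counting error only.

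Coordinates are ce11, read against the same assembly (WBcel235) with Ensembl release 115 genes and the RefSeq sequence. Summits took the first fitting location of promoter, coding exon, 5' UTR, 3' UTR, non-coding exon, intron and intergenic. Two-sided Fisher's exact tests (scipy 1.17.1), with 0.5 added to each cell for odds ratios, formed 1 family of 8 adjusted by Benjamini-Hochberg at 0.05. They were run on simulated lists, in which thresholded peaks were drawn singly, at random or with a planted excess on III and in promoters. Runs of neighbouring peaks were not simulated, so this does not bear on the dependence between neighbours described above. The regions and lists were chosen with earlier results of these data known. Named are the 20 strongest peaks, the 5 strongest per segment, those at the boundary, up to 4 genes per list, the Hox and classical loci, unc-119, the 3 peaks that differ most between replicates, and the strongest outside promoters or below the threshold. The genes hat-1, M03C11.3, mev-1, jmjd-4, cgh-1, ndua-8, nduc-2, rps-29, rpl-16, rpl-37, dpy-28, odr-4, sup-26 and kel-3's second summit fall outside this and were picked once values were known.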

Additional observations from a re-analysis of the deposited data

How the results depend on the processing

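Of the 8 comparisons, those of the thresholded share in the middle against the outer segments, of III with the other chromosomes by genes, of promoter shares on III and of divergent summits (not past the threshold) kept their direction and their side of the threshold under every alternative run. Alternatives were other promoter windows, the peak midpoint, the stronger 246 thresholded peaks, each replicate's 491 strongest peaks, the ce10 lists, other cuts of the chromosome, the mitochondrial peaks added to the others and fewer genes. The midpoint equals the summit for nearly all peaks, so it tests little. Those chosen after seeing the data were 1 peak per run of neighbours, other autosomes only, and genes without the ribosomal or the receptor and lectin families. Without replicate 1 or 2 the odds ratios ranged from 1.42 to 1.52 for thresholded shares of III against others, 1.74 to 1.81 for the middle against the outer segments, 2 to 2.02 for genes of III against others, 1.1 to 1.23 for genes of the middle, 6.49 to 6.72 for promoters on III, 0.616 to 0.641 for promoters against other chromosomes, 1.19 to 1.47 for divergent summits and 0.91 to 0.937 for genes of III against I.

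The share of III peaks that are thresholded lost its call with 1 peak per run (odds ratio 1.31, adjusted Fisher p = 0.0681). The promoter share of III against other chromosomes gained one against other autosomes only (0.355). Genes of III against I turned to 1.35 among the stronger 246 peaks (adjusted Fisher p = 0.126), and genes of the middle turned to 0.969 without ribosomal protein genes (adjusted p = 0.923), neither past the threshold. The cause was not tested. With at least 50% of the narrower peak shared, the overlap of III peaks below the threshold fell to 45.9% (replicate 1) and 49.5% (replicate 2), and with summits within 100 bp to 40.6% and 41%, while thresholded peaks stayed at 97.1% or more. Depth per replicate is not known, so weak peaks cannot be weighed by it. No paired analysis was possible because the samples form a single group.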
